A study of Bos taurus with 2 samples.

Results

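ZNF genes encode zinc finger proteins known by number, and 140 of the 421 ZNF genes on a bovine expression array (33.3%) were detected in sperm RNA on both arrays of the series. Over all 29257 genes on the array the share was 38.5%, and counting any probe of the ZNF genes it was 34.0%. A probe counted as a ZNF probe when its gene name was ZNF with a number or its description read zinc finger protein with a number, and 796 probes did. A gene was kept when all spots of at least 1 such probe lay well above background on both arrays, so the members were chosen by their measured detection on the same arrays, which is given as a description. Of the 140 genes, 38 had no probe with such a gene name, measured or not, and were found by the description alone. Some others, such as ZNF385A, carry the name only on a probe that was not measured on both arrays. Among the 140, 43 have no current ZNF symbol, such as ZBTB18 (ZNF238 in the file), GLI4, CIZ1 and ZFP36L1.

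The study set spermatozoa of high-fertile bulls against spermatozoa of low-fertile bulls. Both groups were crossbred male breeding bulls, and the samples carry no treatment or genetic change. Total RNA was taken after DNase treatment, primed with oligo-dT and labelled with Cy3, and each group had 1 array. The labels give neither the bulls' ages nor how many bulls stood behind each array. With 1 array per group there was no replicate check, so every difference below describes these 2 arrays, no p-value is given, and the number of arrays limits the precision. An SD over probes or spots covers technical spread within the arrays only. In bulk RNA, fewer cells of a type and less RNA per cell cannot be told apart.

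Most ZNF genes encode DNA-binding proteins built from a row of C2H2 fingers, small folds in which cysteine and histidine residues hold a zinc ion and each finger reads a short stretch of DNA. Many also carry a KRAB domain, which in human and mouse binds the corepressor TRIM28 and brings histone methylation to transposable elements and other targets. The family grew by tandem duplication, so near copies lie side by side in clusters and share much of their finger sequence. Mature sperm are thought to make little or no RNA, and what they hold is mostly left from earlier stages in the testis.

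The shared finger sequence was visible in the probes themselves. Neighbouring fingers are joined by a short linker of the type Gly-Glu-Lys-Pro, which in DNA fits the pattern GGNGANAANCC. On the probe strand this pattern was present in 29 of the 796 ZNF probes (3.64%) against 0.207% of all 51280 probes, and the reverse complement GGNTTNTCNCC was in none of the ZNF probes and in 0.0839% of all probes. The match describes letters in a window of 60 bases and not a protein. Of the 29 probes, 7 were measured on both arrays, and 1 for each of their 6 genes is shown because it lets a reader see the finger linker, in capitals. Positions are on build HGSC Btau_3.1, and each sequence runs 5′ to 3′ on the plus strand.
LOC100138905, chr18:58419042-58419100: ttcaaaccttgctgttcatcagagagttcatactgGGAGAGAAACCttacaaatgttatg
ENSBTAT00000022417, chr18:57179562-57179789: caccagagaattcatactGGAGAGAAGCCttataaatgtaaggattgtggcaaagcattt
ZNF322, chr23:31471607-31471666: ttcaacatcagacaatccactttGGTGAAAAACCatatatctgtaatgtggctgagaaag
ZNF35, chr22:16876915-16876974: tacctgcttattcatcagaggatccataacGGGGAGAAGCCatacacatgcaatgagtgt
GLI4, chr14:1488202-1488261: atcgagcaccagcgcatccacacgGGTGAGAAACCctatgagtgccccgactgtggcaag
LOC100337414, chrUn: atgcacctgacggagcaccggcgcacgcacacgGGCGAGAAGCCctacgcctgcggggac
High minus low, these probes differed by -1.33 (LOC100138905), -0.36 (ENSBTAT00000022417), -0.54 (ZNF322), -0.35 (ZNF35), -0.65 (GLI4) and 0.43 (LOC100337414) on the log2 scale, and the second ZNF322 probe with the pattern by -0.51. The other measured probe of GLI4, without the pattern, was at 0.19.

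Levels of the detected ZNF genes were close on the 2 arrays. Signals are given relative to each array's 75th percentile of detected probes, so that a relative signal of 1 is that percentile, and a difference is the log2 relative signal of the high-fertile array minus that of the low-fertile array, averaged over a gene's measured probes. The median difference was -0.05 over the 140 genes and -0.0018 over all 11255 genes measured on both arrays. The quartiles of the ZNF genes were -0.34 and 0.18, against -0.25 and 0.24 for all genes, and 104 of the 140 lay within 0.5 of 0. Below 0 were 79 ZNF genes (56.4%), beside 50.3% of all genes. Other scalings shift every difference alike: taking the 75th percentile over every probe moved the median of all genes to 0.10 and that of the ZNF genes to 0.05, with 67 of them below 0, and spike-in scaling moved these medians to -0.60 and -0.65. The sign of a difference that lies within such a shift therefore depends on the scaling, here and in the chromosome and cluster counts.

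At least 2-fold higher on the high-fertile array were 3 ZNF genes (2.14%), beside 1.81% of all genes, and at least 2-fold lower were 6 (4.29%), beside 2.43%. In either direction the share over all genes was 4.25%. These shares lie near those of all genes, and none of the 140 ZNF genes reached 4-fold. Of the 9 genes, 8 rested on a single measured probe, and 8, all but ZNF836, had a mean signal on the dimmer array of less than 4 times the lowest signal well above background there, which was a relative signal of 0.152 in the high-fertile sample and 0.163 in the low-fertile one.

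**Figure D1:**
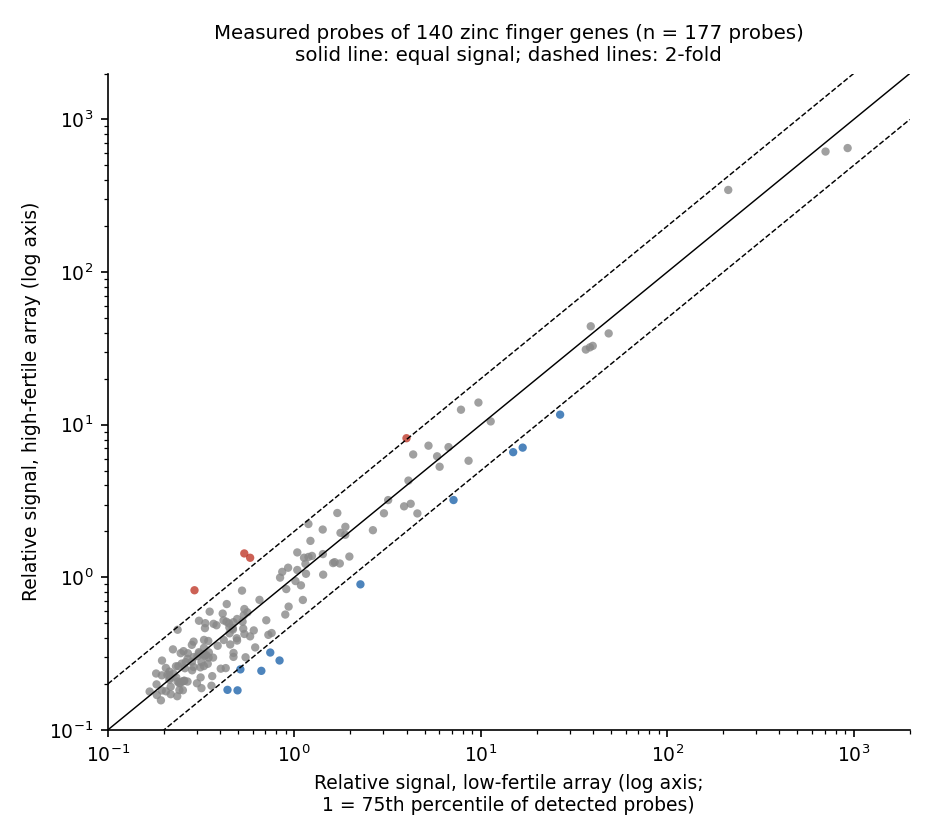
Relative signal of the 177 measured probes of the 140 ZNF genes on the low-fertile array (x axis, log) and the high-fertile array (y axis, log), 1 point per probe, with red for a signal at least 2-fold higher, and blue for one at least 2-fold lower, on the high-fertile array. Most points lie between the dashed 2-fold lines.

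The genes higher on the high-fertile array were ZNF706, ZNF3 and ZNF205. ZNF706, a small single-finger protein that in mouse embryonic stem cells takes part in leaving the pluripotent state, had a relative signal of 0.823 in the high-fertile sample and 0.292 in the low-fertile one, a log2 difference of 1.496 (2.82-fold). Its other probe was not well above background on either array. ZNF3 had relative signals of 1.43 and 0.540, a difference of 1.41 (2.66-fold), from 1 of its 3 probes. ZNF205 had 1.34 and 0.580, a difference of 1.21 (2.31-fold), also from 1 of 3 probes. All 3 fell below 2-fold with spike-in scaling, with normexp background correction and with no filter on dim probes, where ZNF3 was at 0.06. The normexp setting adds 50 to every corrected signal, which by itself shrinks differences between dim signals.

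The genes lower on the high-fertile array were led by finger genes of chromosome 18. LOC100138905, described in the file as zinc finger protein 347, was measured by both of its probes: the first, shown above, had relative signals of 0.899 (high-fertile) and 2.26 (low-fertile), and the second 0.285 and 0.834. The mean difference was -1.44 ± 0.15 (SD over 2 probes), a level 2.71-fold lower. It was the only gene of the 9 with more than 1 measured probe. NP13360232, a transcript similar to zinc finger protein 114 (chr18:54851231-54851290), had 0.182 and 0.496, a difference of -1.45. XM_001790640, described as ZFP14 (chr18:46583338-46583397), had 0.322 and 0.744, a difference of -1.21.

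ZNF836 was the member of this group whose signals lay farthest above background. Its relative signals were 3.21 (high-fertile) and 7.15 (low-fertile), a difference of -1.16 (2.23-fold lower), from the only ZNF836 probe and a single spot on each array. Under all 13 settings that gave this probe a value it was at least 2-fold lower, from -1.05 to -1.76. With 1 probe and 1 spot, the settings that choose among probes or filter them left the value at -1.16. They could only keep or drop it, so they are no check on it, and other scalings shift all genes alike. Its signals before scaling were 477 and 1332, so the 50 added in the normexp setting could change it little. The probe, shown because it carries that value, lies on the plus strand and shares no run of 16 bases with a probe of another gene.
ZNF836, chr18:59567017-59567076: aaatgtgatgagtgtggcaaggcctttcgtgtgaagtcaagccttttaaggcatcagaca
A transcript that the file also describes under ZNF836, ENSBTAT00000028575, lies next to it and may be the same gene. It had 0.225 and 0.363, a difference of -0.69, and its probe shares runs of 16 and 19 bases with the 2 probes of LOC100138905. Taken as 1 gene, the pair had a mean of -0.92 ± 0.33 (SD, 2 probes), which is below 2-fold and leaves 5 lower genes of 139.

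The other 2-fold lower genes were XM_002695224 and ZBTB18. XM_002695224, described as zinc finger protein 347-like and without a position in the file, had relative signals of 0.244 and 0.666, and its 2 spots gave -1.41 and -1.49. LOC100138905 is described under the same number, and whether the 2 are 1 gene was not tested. ZBTB18, on chromosome 16, a transcriptional repressor needed for cortical development in mouse, had 0.249 and 0.514, a difference of -1.04 from 1 of 4 probes, and stayed at 2-fold under 5 of 12 settings. NP13360232, XM_002695224, LOC100138905 and XM_001790640 fell below 2-fold only with normexp background correction, where their differences were -0.44, -0.72, -0.93 and -0.51, among the settings that gave them a value. Because that setting adds 50 to every corrected signal, it shrinks differences of dim probes by itself and is no independent check on these genes. LOC100138905 and XM_002695224 had no value once probes sharing 16 bases with another gene were left out, and a probe of LOC100138905 shares 37 bases with one of ZNF93. NP13360232, XM_002695224 and XM_001790640 had none under the stricter filter on dim probes.

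**Figure D2:**
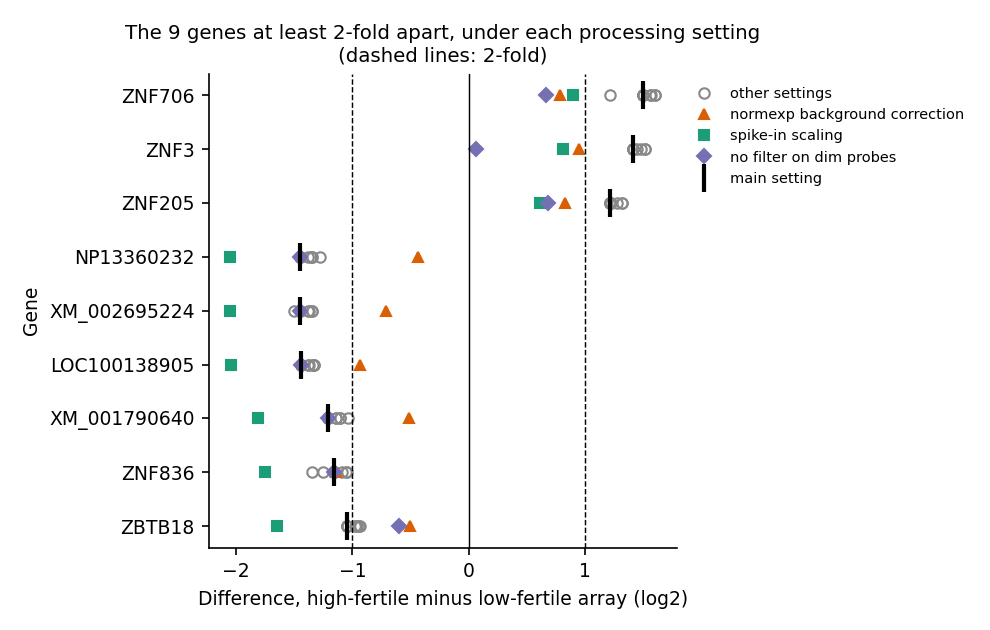
Log2 difference (high-fertile minus low-fertile array, x axis) of the 9 ZNF genes at least 2-fold apart, with 1 symbol per processing setting and a black bar for the main one. No gene crosses 0, and the 3 genes higher on the high-fertile array drop below the 2-fold line under 3 settings.

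Several probes of a gene often did not agree, which sets how far a single-probe value can be read. Of the 140 genes, 113 had 1 measured probe, and 71 of these had other probes on the array that were not measured on both arrays. Over the 27 genes with 2 or more measured probes, the pooled SD over probes was 0.43 on the log2 scale (0.41 over all 2131 such genes). The pooled SD over repeated spots of a probe was 0.21 (38 probes), against 0.28 over all genes (3048 probes). All measured probes had one sign in 14 of the 27 genes, beside 1131 of the 2131 genes of any kind. The median difference of these 27 was 0.07, with 16 above and 11 below 0.

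The genes with the most measured probes were described one by one. ZNF628, which in mouse is needed for spermatid development, had log2 differences of 0.59, 0.13 and 0.62, a mean of 0.45 ± 0.27 (SD, 3 probes), with mean relative signals of 0.425 (high-fertile) and 0.312 (low-fertile). All 3 probes were higher on the high-fertile array, but with spike-in scaling the mean was -0.15. ZFP36L1, a CCCH finger protein that binds AU-rich elements and speeds mRNA decay, had -1.26, -0.57 and -0.83, a mean of -0.89 ± 0.35 (SD, 3 probes), with relative signals of 0.234 and 0.433. All 3 of its probes were lower on the high-fertile array. There they had 0.183, 0.202 and 0.347, where the lowest signal well above background was 0.152. With normexp background correction the mean was -0.30. ZNF133, a KRAB repressor in human, had 0.35, 0.16 and -0.29, a mean of 0.07 ± 0.33 (SD, 3 probes), and its probes disagreed in sign.

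ZNF322 had 3 measured probes within a stretch of overlapping positions, at -0.54, -0.51 and 0.11, a mean of -0.31 ± 0.36 (SD). LOC614260, named ZNF75D in the file, had -0.41, 0.47 and 0.52, a mean of 0.20 ± 0.52 (SD), and the 2 positive probes overlap almost entirely. Closest to 0 among genes with several probes were ZNF132 (0.03 ± 0.02, SD, 2 probes), ZNF629 (0.04 ± 0.15), ZNF142 (-0.05 ± 0.34) and ZNF532 (-0.06 ± 0.18). For ZNF132 both probes gave nearly the same signal on the 2 arrays, at relative signals of 0.233 and 0.225 for the first and 1.90 and 1.88 for the second.

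**Figure D3:**
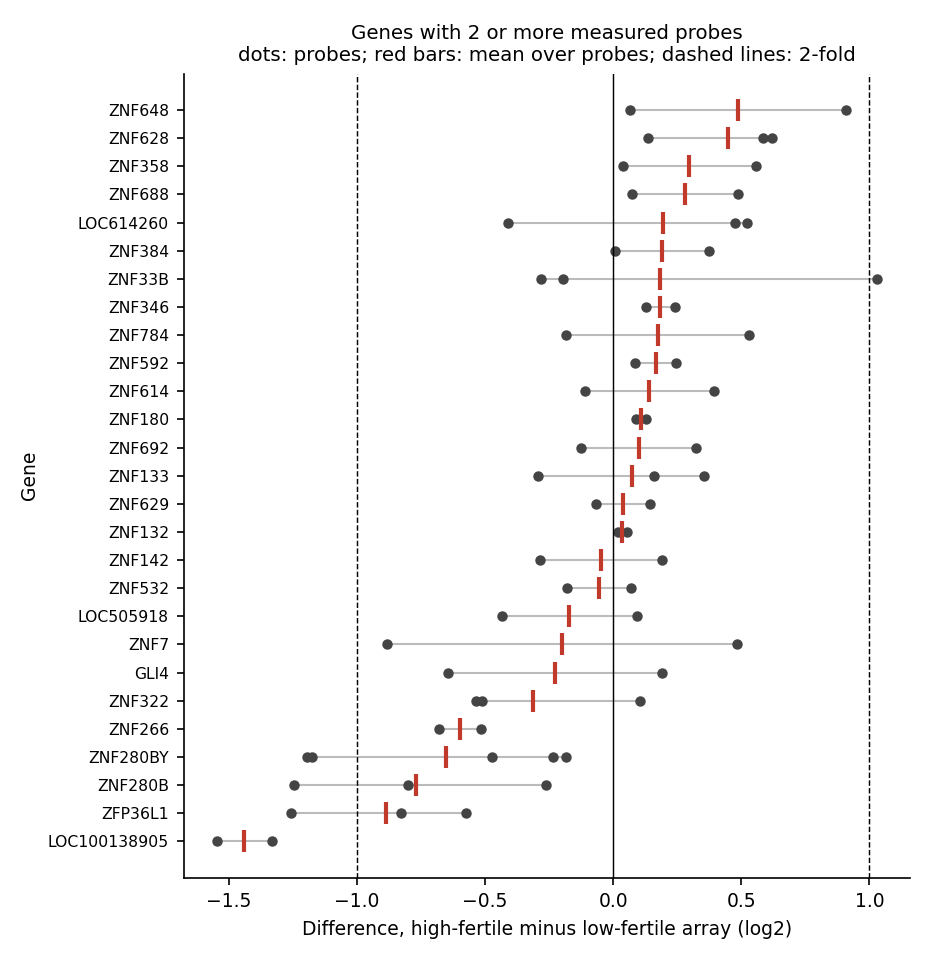
Log2 difference (high-fertile minus low-fertile array, x axis) of each measured probe (dots) and the mean (red bar) for the 27 ZNF genes with 2 or more measured probes. LOC100138905 has both probes beyond the lower 2-fold line, while ZNF33B, ZNF7 and LOC614260 have probes on both sides of 0.

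ZNF280B and its copy on the bovine Y chromosome, ZNF280BY, both had lower signals on the high-fertile array. ZNF280B had log2 differences of -1.25, -0.26 and -0.80, a mean of -0.77 ± 0.49 (SD, 3 probes). ZNF280BY had -0.24, -1.20, -0.18, -1.18 and -0.47, a mean of -0.65 ± 0.50 (SD, 5 probes). All 8 probes were lower on the high-fertile array, and the values of each gene spanned from near 0 to beyond 2-fold. ZNF280A, beside ZNF280B on chromosome 17, had relative signals of 1.24 and 1.62, a difference of -0.38 from its only probe.

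The probes of ZNF280B and ZNF280BY are not independent of each other. A pair of probes, shown because their values were alike, overlaps over 59 bases with 4 mismatches, which are in capitals.
ZNF280B, chr17:74306849-74306908, minus strand: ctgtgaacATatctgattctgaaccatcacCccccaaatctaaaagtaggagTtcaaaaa
ZNF280BY, chrUn, plus strand: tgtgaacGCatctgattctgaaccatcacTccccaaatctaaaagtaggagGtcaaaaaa
The ZNF280B probe of this pair had relative signals of 32.1 and 38.5, a difference of -0.26, and the ZNF280BY probe 31.1 and 36.6, a difference of -0.24. A second pair overlaps over 31 bases with 1 mismatch.
ZNF280B, chr17:74307177-74307236, minus strand: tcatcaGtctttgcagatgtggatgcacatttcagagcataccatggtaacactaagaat
ZNF280BY, chrUn, plus strand: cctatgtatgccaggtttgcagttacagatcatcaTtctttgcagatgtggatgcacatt
Here the differences were -1.25 (7.08 and 16.8) and -1.20 (11.6 and 26.7). Transcripts of the 2 genes cannot be told apart by such pairs. The 3 ZNF280BY probes that share no run of 16 bases with another gene gave -0.18, -1.18 and -0.47. A further transcript, XR_083507, described as a suppressor of hairy wing homolog and sharing 29 to 31 bases with the second pair, had -1.31 for that probe and -0.93 for its other one.

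Sharing of probe sequence reached beyond close relatives. Of the 140 genes, 26 had a measured probe with a run of at least 16 bases in common with a probe of another gene. These 26 had a median difference of -0.24, with 9 above and 17 below 0, and the 114 others had a median of -0.03, with 52 above and 62 below 0. The share of measured ZNF probes with such a run was 17.1%, against 13.8% of all measured probes.

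ZNF674 is a case in which the only measured probe carried such a run. Before scaling, its signal was 51315 (high-fertile) and 39614 (low-fertile), a difference of 0.70, while its other 2 probes, at 5.01 and 6.90 and at 4.57 and 6.32, were not well above background. The bright probe shares runs of 17 to 23 bases with probes of 4 genes of other families, on chromosomes 1, 13 and 24. The windows of 30 bases are shown because they hold the shared runs, in capitals.
ZNF674, chrUn: TGGGTTGCCATTTCCTTCTCCAAAagtgtt
CDNF, chr13: gagTGGGTTGCCATTTCCTTCTCCAAtgca
IFT80, chr1: GTTGCCATTTCCTTCTCCAAAgcatgaaag
CHMP1B, chr24: GTTGCCATTTCCTTCTCCAAtgcgtgaaag
DSEL, chr24: tgggtcGCCATTTCCTTCTCCAAtgcatga
The log2 differences of the other probes were 0.56 for CDNF, 0.72 for IFT80, 0.59 for CHMP1B and 0.66 for DSEL, all within 0.15 of that of ZNF674. Relative signals were 345 and 213 for ZNF674, 679 and 460 for CDNF, 218 and 133 for IFT80, 335 and 222 for CHMP1B and 365 and 230 for DSEL. The part of the shared run in these signals was not tested.

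ZNF266 and ZNF33B also had probes with such runs. ZNF266 had relative signals of 650 and 929 for the probe sharing 19 bases with CWC25 and 21 with CD300LG, a difference of -0.52, and 0.252 and 0.403 for its other probe, a difference of -0.68. ZNF33B, on chromosome 28, had a probe that the file places on chromosome 2 and that shares 35 bases with CPPED1: its difference was -0.20 (617 and 707), and that of the CPPED1 probe was -1.07. A second ZNF33B probe sharing 37 bases with MTMR2 had -0.28, and the third, without a shared run, had 1.03 (8.16 and 3.999). The mean of 0.18 ± 0.73 (SD, 3 probes) thus joined probes of opposite direction.

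Chromosome 18 held more detected ZNF genes than any other chromosome. It carried 111 of the 421 genes and 35 of the 140 detected ones (31.5% of its genes), chromosome 7 carried 29 and 12, and chromosome 25 carried 23 and 12 (52.2%). None of the 7 ZNF genes on the X chromosome was detected on both arrays. Of all genes with a position there, 52.1% were detected on chromosome 18, 45.8% on chromosome 7, 48.5% on chromosome 25 and 33.0% on the X chromosome. Of the 69 genes without a position in the file 16 were detected, and of the 22 on unplaced sequence 11.

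**Figure D4:**
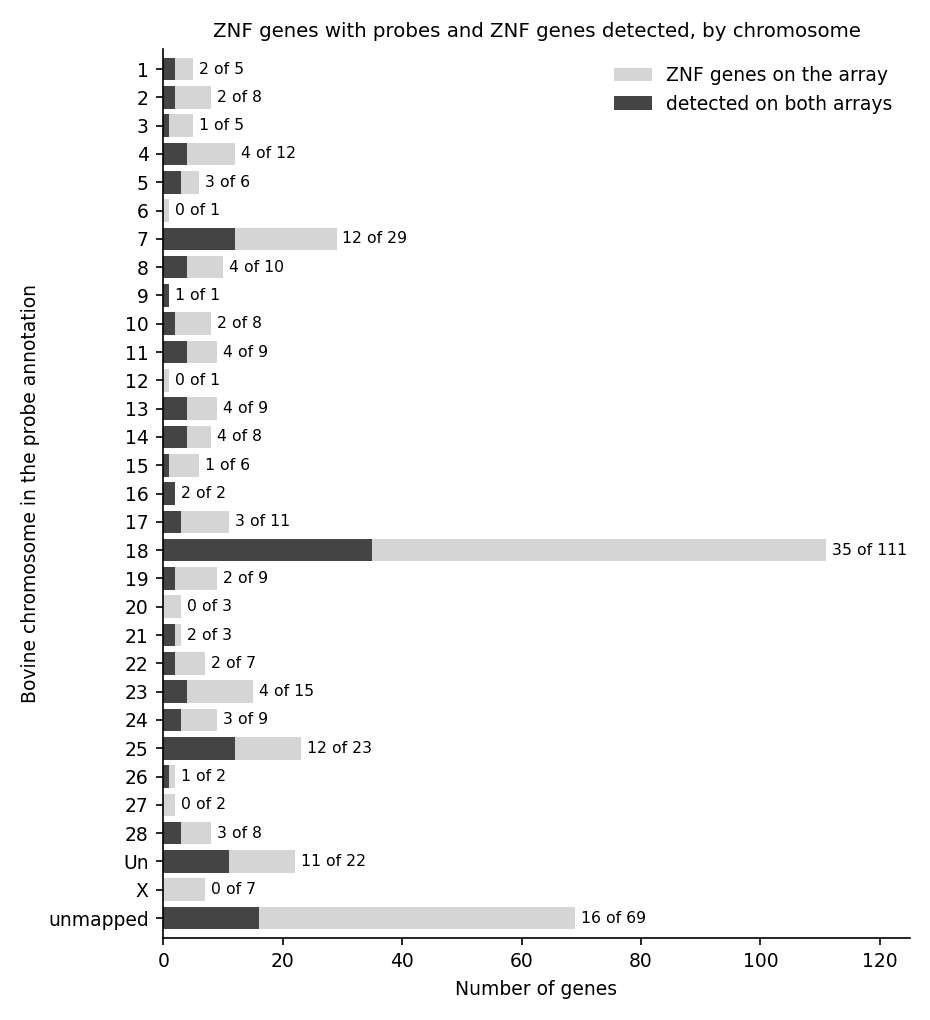
Number of ZNF genes with probes (light bars) and of those detected on both arrays (dark bars), by bovine chromosome in the probe annotation, Un being unplaced sequence. Chromosome 18 holds 111 genes, of which 35 were detected, and the X chromosome holds 7, of which none was.

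Chromosome 18, with 35 of the 140 detected genes, held 4 of the 9 genes at least 2-fold apart, and chromosome 25, with 12, held 2. Over all genes measured, wherever they lie, 2.43% were at least 2-fold lower and 1.81% higher. The same shares for all genes of these 2 chromosomes are not given. ZNF836, 1 of the 4 on chromosome 18, falls to -0.92 when joined with ENSBTAT00000028575. On chromosome 18, 4 of the 35 detected genes were at least 2-fold lower and none was 2-fold higher, and the median was -0.07, with 17 above and 18 below 0. Its highest gene was ZNF444 at 0.54 (relative signals 0.285 and 0.195). Of the other 2-fold lower genes, ZBTB18 lies on chromosome 16 and XM_002695224 has no position. On chromosome 25, 2 of the 12 detected genes, ZNF3 and ZNF205, were at least 2-fold higher, 8 of the 12 were above 0, and the median was 0.09. The lowest there was ZNF668 at -0.47 (0.182 and 0.253).

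The 4 tandem clusters of chromosome 18 were looked at separately. They were drawn as runs of at least 5 ZNF genes with gaps of up to 1 Mb, after the values were known, and are described without a test. In the cluster at chr18:56287822-60924342, 9 of 24 genes were detected, 7 of the 9 were lower on the high-fertile array (ZNF836 and ENSBTAT00000028575 counted as 2), and the median was -0.36. It held LOC100138905 (-1.44), ZNF836 (-1.16), LOC100139760 (-0.87, 0.299 and 0.548), ENSBTAT00000028575 (-0.69) and ENSBTAT00000022417 (-0.36), while ZNF331 was at -0.07, ENSBTAT00000057355 at 0.11 and ZNF614 at 0.14. In the cluster at chr18:63713645-66045870, 11 of 29 genes were detected, 7 of them above 0, with a median of 0.07. There ZNF274, which in human brings the methyltransferase SETDB1 to the 3′ ends of ZNF genes, was at -0.32 (0.262 and 0.328), and ZNF132 was at 0.03. In the cluster at chr18:46254815-47132643 only 2 of 25 genes were detected, XM_001790640 among them, and both were below 0. In the cluster at chr18:50795889-52532871, 4 of 12 genes were detected, with a median of 0.08: ZNF526 (0.06), ZNF428 (0.09) and ZNF180 (0.11) were above 0 and ZNF576 was at -0.81.

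On chromosome 7, all 5 detected genes of the cluster at chr7:11212698-12823733 were below 0, with a median of -0.30: LOC784148 (-0.30), LOC505918 (-0.17), ZNF317 (-0.39), ZNF177 (-0.04) and ZNF266 (-0.60). The highest gene of that chromosome, ZNF414, lay outside this cluster at 0.94 (0.453 and 0.237). On chromosome 25, 7 of the 9 genes in the cluster at chr25:28403081-29461527 were detected, 6 of them above 0, with a median of 0.10, while only ZNF205 was detected of the 8 genes at chr25:3127617-3423127. On unplaced sequence the lowest gene was ENSBTAT00000021794 at -0.76 (0.188 and 0.318), and among genes without a position the highest was XR_083031, described as zinc finger protein 286-like, at 0.75 (0.519 and 0.308).

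**Figure D5:**
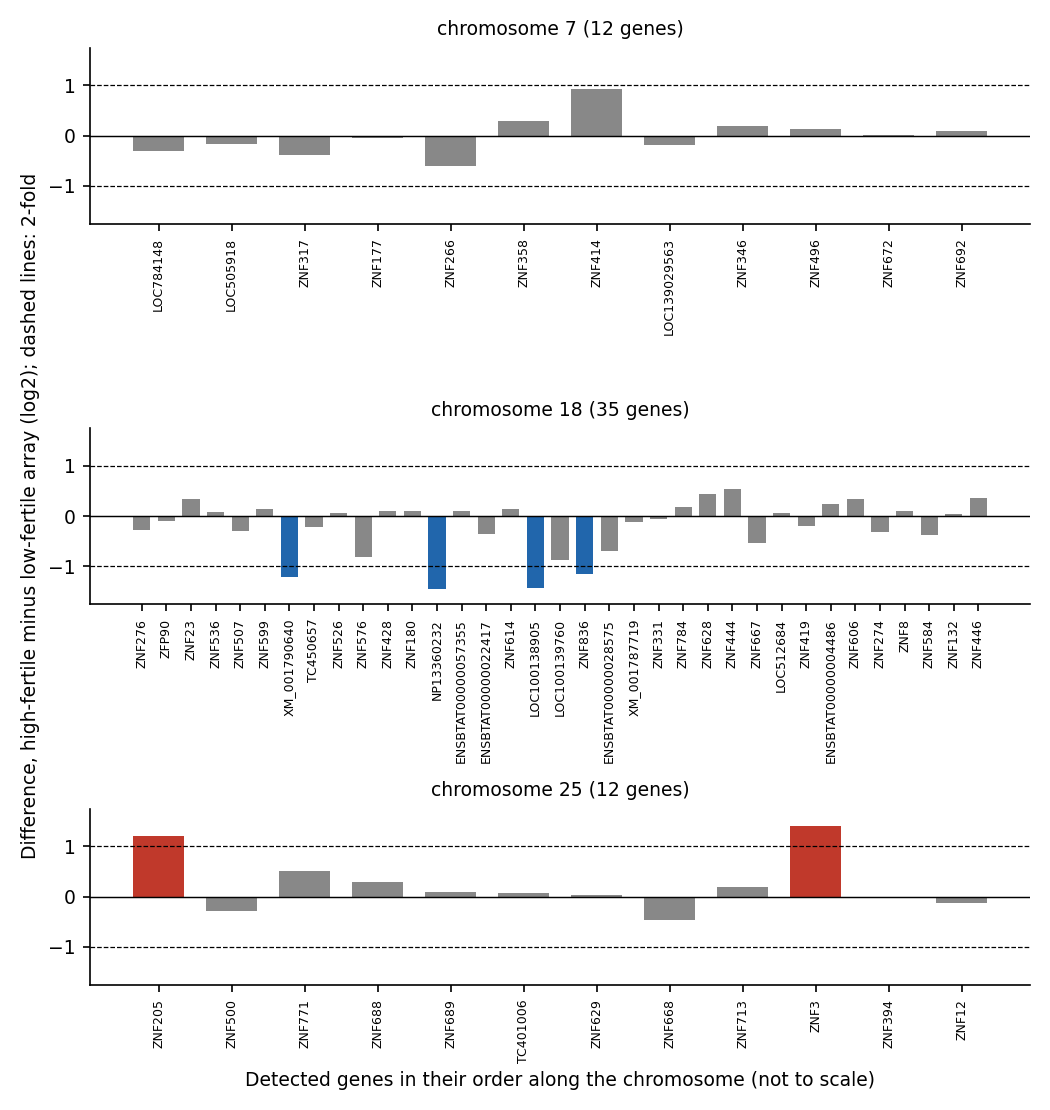
Log2 difference (high-fertile minus low-fertile array, y axis) of the detected ZNF genes of chromosomes 7, 18 and 25, in their order along each chromosome and not to scale. The 4 blue bars on chromosome 18 are at least 2-fold lower, and the 2 red bars on chromosome 25 at least 2-fold higher, on the high-fertile array.

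Other ZNF genes were well above background on 1 array alone. On the low-fertile array alone 25 genes were measured (5.94% of 421, against 3.91% of all genes), and 3 of them had a bound of at least 2-fold, beside 18% of the 1143 genes of any kind. ZNF226 had a relative signal of 0.838 there, from 1 of its 3 probes and a single spot, and was not well above background on the high-fertile array. That probe was thus at least 5.23-fold lower on the latter. LOC787397 was at least 2.27-fold (2 of 4 probes bright) and LOC616720 at least 2.10-fold (2 of 2) lower on the high-fertile array, and for ZNF250 the bound was 1.91-fold (2 of 4). On the high-fertile array alone 12 genes were measured (2.85%, against 3.57% of all genes), of which 1 had a bound of at least 2-fold, beside 7.56% of 1045 genes. This was ZNF32, at 0.339, at least 2.07-fold higher on the high-fertile array, from 1 of its 2 probes. The next bounds were 1.62-fold for ZNF710, 1.52-fold for ENSBTAT00000023710 and 1.51-fold for ZNF653. Each bound is the bright signal over the higher of the dim probe's own signal and the lowest signal well above background on the other array. Where a gene had several bright probes, the largest bound is given.

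ZNF148, a factor that binds GC-rich promoters, shows how the probes of 1 gene can split. The probe measured on both arrays had relative signals of 0.271 and 0.344, a difference of -0.34. Another of its 6 probes was bright on the low-fertile array only, at a signal of 175 against 5.51, which gives at least 6.19-fold lower on the high-fertile array. Of the 8 spots around that probe, 4 were also at least 2-fold lower on the high-fertile array, and their part in this value was not tested. The other 4 probes were not measured on both arrays.

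Near the detection threshold the genes just inside were ZNF318, with signals of 23.2 and 35.9, ZNF79, with 24.7 and 43.9, and CIZ1, a nuclear matrix protein of DNA replication, with 25.1 and 34.2. Just outside were XM_002692244, described as zinc finger protein 704-like, with 1 of its 2 spots above background at mean signals of 33.2 and 38.9, ZNF362 with 26.9 and 33.8, and ZNF710 with 43.3 and 33.4. The inner and outer values overlap. XM_002692244 was outside because the rule asks for all spots of a probe, and the reason for the rest of the overlap was not tested.

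Some widely known ZNF genes were not detected. ZNF143, an activator of many housekeeping promoters, ZNF207, a kinetochore and spindle protein, ZNF410, which in human controls CHD4, and ZNF541, which in mouse is needed for spermatocytes to leave meiotic prophase, had no probe well above background on either array. ZNF24 and ZNF165, the latter known from human testis, were measured on the low-fertile array only, with bounds of 1.47-fold and 1.68-fold. ZNF335, a subunit of a histone methyltransferase complex, differed by -0.01 (0.465 and 0.468).

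Genes of the pathway through which KRAB zinc finger proteins repress were compared as a list, most of them corepressors. The list includes ZNF274, itself 1 of the 140 genes. Of the 33 listed genes 22 were measured on both arrays, with a median difference of -0.01, 11 above and 11 below 0. By 2-fold or more 1 was higher and none lower, beside 1.81% and 2.43% of all genes. TRIM28, the KRAB-binding corepressor itself, had relative signals of 0.723 and 0.446, a difference of 0.70 ± 0.07 (SD, 2 probes). SETDB1, the histone methyltransferase it recruits, was at -0.09 (0.222 and 0.236). The largest differences upwards were those of GATAD2A, of the NuRD complex, at 1.08 (16.6 and 7.84, 1 of 4 probes) and UHRF1, which guides maintenance DNA methylation, at 0.76. The heterochromatin proteins CBX1 and CBX3 were at -0.75 ± 0.42 and -0.49 ± 0.84 (SD, 3 probes each), and the histone-binding subunit RBBP4 was at -0.45 ± 0.70 (SD, 2 probes).

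Other zinc finger families, counted without the 140 genes, had 116 measured genes with a median of 0.07, 69 above and 47 below 0. By 2-fold or more 4 of the 116 were higher and 2 lower, beside 204 (1.81%) and 274 (2.43%) of all 11255 genes measured. These families hold C2H2 factors as well as ring finger, CCCH and DHHC proteins, so they are not a single class. They were drawn by the start of the symbol, so SP140L (0.54 ± 1.05, SD, 2 probes), which is not an SP factor, was counted too. The higher genes were ZCCHC9 at 1.12 and RNF166 at 1.07, each from 1 of 2 probes, SP2 at 1.06 ± 0.66 (SD, 2 probes) and PRDM15 at 1.03, from its only probe. The lower ones were PRDM1 at -2.43, from 1 of 5 probes, and ZDHHC4 at -1.30, from 1 of 4. On the high-fertile array their relative signals were 0.197 and 0.174, near the lowest signal well above background there (0.152).

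Marker genes of sperm and of other cells were both present. Of 26 sperm genes 14 were measured on both arrays, including PRM1, TNP1, TNP2 and ODF1, while PRM2, AKAP4 and LDHC were not well above background. The 14 had a summed relative signal of 12.6 (high-fertile) and 11.3 (low-fertile) and a median difference of 0.008, with 7 above and 7 below 0. TNP2 (1.22, from 1 of 2 probes) and ACTL7B (1.19, from its only probe) were at least 2-fold higher on the high-fertile array. PRM1 (-1.10 ± 0.28, SD, 2 probes) was at least 2-fold lower. Over all genes measured, 1.81% were higher and 2.43% lower by as much. On the low-fertile array TNP2 was at 0.205, near the lowest signal well above background there (0.163). Of 19 leukocyte genes 12, including PTPRC, were measured on both arrays. Their summed relative signal was 140 (high-fertile) and 185 (low-fertile), with a median difference of -0.07, 5 above and 7 below 0 and none at 2-fold. CD3D had 31.3 and 39.9 from 1 of 3 probes, while S100A8 had 0.211 and 0.221, so bright probes weigh most in such a sum. Sums of different lists therefore do not compare amounts of cells. FCER1G, LAPTM5 and SPI1 were measured on the high-fertile array alone, ITGAM on the low-fertile array alone, and CD3E was not well above background. Of 12 epithelial genes 7 were measured (12.1 and 10.8 in sum), with CDH1 and EPCAM not well above background, and of 14 testis somatic genes 8 (17.0 and 15.1). None of 10 spermatogonial and meiotic genes was measured on both arrays. The part of other cells in the ZNF signals was not tested.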

How the data were processed

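Sperm RNA of 1 high-fertile and 1 low-fertile group was measured on 1 array each, grouped by the labels' fertility entry. The deposited scanner tables hold intensity values that, per the file headers, Agilent Feature Extraction 11.5.1.1 produced, with background and spatial trend removed within each array. The deposited series matrix holds log2 values, equal to the log2 processed signal plus 1 constant per array (-5.12 and -5.55, within 0.01 for 98.6% of probes). Its column medians were -1.43 and -1.37. A normalization between arrays is not given in the sources used here.

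Spots other than controls and outlier flags were averaged per probe on the log2 scale, and each array's 75th percentile over probes well above background on both arrays (27.6% of probes) was subtracted. These percentiles were 148.6 and 186.3, the shares of spots above background were 33.2% and 32.9%, and no ZNF spot was saturated. A gene's difference is the mean over its measured probes, counted at an absolute log2 of 1, and the calculation was tested on simulated data. Probe positions are on HGSC Btau_3.1, and current names come from ARS-UCD2.0, used for names only. Tools were Python 3.11.15 with pandas 2.3.3 and R 4.3.3 with limma 3.58.1. Named were all genes at least 2-fold apart, those with the most probes, those nearest 0 and nearest the threshold, the extremes per chromosome with at least 5 members, the 4 largest bounds per array and a fixed list. The 140 genes and the lists were chosen with earlier results of these data known, and the clusters, shared runs and linker pattern after seeing the values. Alternatives covered background correction, scaling, filters and probe choice.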

Additional observations from a re-analysis of the deposited data

How the results depend on the processing

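No paired analysis was possible because each group had 1 array. None of the 9 ZNF genes at least 2-fold apart changed sign under any alternative that gave it a value. A 4-fold threshold left 0 higher and 0 lower genes. Spike-in scaling gave 0 higher and 28 lower genes and a median of -0.65. Over 7 spike-ins the high-fertile array was 0.27 (SD 0.089) above the low-fertile array on the log2 scale, while its median probe was 1.26-fold dimmer, and the median of all genes moved to -0.60. With normexp and its added 50, which by itself shrinks differences between dim signals, 0 genes were higher and 1 lower. With no filter on dim probes 0 were higher. The stricter filter left 46 measured genes, 0 higher and 2 lower, and 45 members by the rule. Gene names alone gave 91 members. Counting genes with a ZNF symbol only, chosen after seeing the data, left 3 higher and 1 lower gene, and taking ZNF836 and ENSBTAT00000028575 as 1 gene, also chosen then, left 3 and 5. Leaving out probes that share 16 bases gave 4 higher and 4 lower genes. Over all genes, 204 were higher and 274 lower, 42.7% of calls being higher. That share was 58.7% when the 75th percentile was taken over every probe (280 and 197), 59.0% with the matrix values, 1.85% with spike-ins (33 and 1748), 59.5% with normexp (69 and 47), 29.7% without a filter (651 and 1538) and 73.7% with the stricter one (123 and 44). The median of ZNF genes minus that of all genes was -0.05 in the main setting and 0.06 without a filter. The causes were not tested. Of 419 differences of named genes under the alternatives, 55 moved by more than the pooled SD over probes of all genes (0.41). Spike-in scaling shifts every gene by the same amount, larger than 0.41, so it alone gave 1 such move for each of the 34 named genes. With 1 array per group, dim probes limit the precision.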
